A study of Mus musculus with 6 samples.

Results

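The genes described here are the 9 that encode the subunits of mTOR complex 1 and mTOR complex 2 (mTORC1 and mTORC2), taken by gene symbol from a table of 49452 gene rows. They are Rictor, Mapkap1, Prr5 and Prr5l, whose products belong to mTORC2 only, Mtor, Mlst8 and Deptor, whose products belong to both complexes, and Rptor and Akt1s1, whose products belong to mTORC1 only. All 9 were found, each as a single row. The values are FPKM, which divide a gene's fragments by its length and by the mapped total of its library, in epidermis separated from C57BL/6 mice at E19.5, late in gestation. The control group held libraries 261, 262 and 264, and the Rictor -/- group, titled ricEKO, held libraries 263, 265 and 266. Values per library follow that order throughout. The labels name neither the Cre driver nor the exons removed, and they give no alleles for the controls. Nor do they tie a library to an animal of its own, so p-values cover the spread between libraries, which may in part be technical. Y-linked genes summed above Xist in controls 261 and 264 and in library 266, and not in 262, 263 or 265. By this reading sex was mixed within both groups and unequal between them. The comparison asks which subunit mRNAs differ between control epidermis and epidermis labelled Rictor -/-.

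mTOR is a serine/threonine kinase that works in a pair of complexes. In mTORC1 the scaffold Raptor (Rptor) brings substrates that drive protein synthesis and restrain autophagy, and the complex responds to amino acids and growth factors. In mTORC2 Rictor and Sin1 (Mapkap1) replace Raptor and bring AKT, SGK and PKC kinases, which support survival, metabolism and the cytoskeleton. In epidermis both complexes are studied for their part in stratification and barrier formation.

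The windows just before the start sites of 3 members are shown for comparison. They belong to Rictor, the targeted gene, to Mtor, the shared kinase, and to Mlst8, the member that passed the test between groups. Each runs from 250 to 11 bases before the start, 5′ to 3′ on the gene's own strand, from RefSeq on GRCm38.p6, where 8 of the 9 members were matched. The capitals mark matches, on either strand, to 5 motifs. The forkhead element was searched as GTAAACA, the E-box as CACGTG and the ETS site as CCGGAAG. For the CCAAT box those 5 letters were used, and for the GC box GGGCGG.
Rictor, chr15:6708131-6708370, plus strand: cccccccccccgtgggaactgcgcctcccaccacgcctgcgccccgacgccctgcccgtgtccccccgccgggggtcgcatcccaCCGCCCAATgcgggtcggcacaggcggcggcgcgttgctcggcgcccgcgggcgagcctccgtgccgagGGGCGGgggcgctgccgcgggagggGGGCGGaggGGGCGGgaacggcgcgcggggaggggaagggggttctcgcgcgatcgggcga
Mtor, chr4:148448332-148448571, plus strand: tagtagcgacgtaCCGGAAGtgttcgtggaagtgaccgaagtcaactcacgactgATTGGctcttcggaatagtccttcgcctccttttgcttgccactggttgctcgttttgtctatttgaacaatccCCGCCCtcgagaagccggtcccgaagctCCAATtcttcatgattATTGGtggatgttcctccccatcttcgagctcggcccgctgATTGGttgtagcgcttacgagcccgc
Mlst8, chr17:24479089-24479328, minus strand: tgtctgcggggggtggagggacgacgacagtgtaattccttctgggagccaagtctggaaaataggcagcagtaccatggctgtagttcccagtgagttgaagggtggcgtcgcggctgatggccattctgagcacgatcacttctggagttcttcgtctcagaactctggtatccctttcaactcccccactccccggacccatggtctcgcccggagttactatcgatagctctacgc
Rictor's window was 82.1% G and C, Mtor's 53.3% and Mlst8's 56.25%, against a median of 52.1% over 32841 windows of the same length. Rictor's window held 4 GC boxes and 1 CCAAT box, of which 1 GC box overlaps the CCAAT box. Mtor's held 4 CCAAT boxes, 1 GC box and 1 ETS site, and no letters of these 5 motifs were matched in Mlst8's. Of all windows 33.0% held a CCAAT box, 31.3% a GC box, 6.20% an ETS site, 5.69% an E-box and 3.06% the forkhead element. These matches describe the sequence only.

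The 6 libraries had FPKM sums of 609375 to 672925. Their relative depth, read from the step size of low values, was 1 to 1.21 times that of control 261. Keratinocyte markers (8 of 8 in the table, 8 tested) summed to 35565 to 36630 FPKM in controls and 37401 to 39015 FPKM under the knockout label, so the labelled tissue carried its defining genes. Of these, 2 rose, the basal keratins Krt14 (2352 to 2897 against 5120 to 6908 FPKM; limma adjusted p = 0.00373) and Krt5 (3354 to 3793 against 5094 to 5405 FPKM; 0.00972). Krt10, a keratin of the suprabasal layers, lay lower without overlap (12681 to 13047 against 11080 to 11987 FPKM) and so did Perp (1983 to 2134 against 1530 to 1780 FPKM), and neither passed (limma adjusted p = 0.251 and 0.0655). Dsp lay higher without overlap (376 to 522 against 528 to 612 FPKM) and did not pass. Krt1, Trp63 and Lor overlapped between groups. Endothelial markers were under 1 FPKM in every library for 6 of 6 genes and summed to 0.644 to 1.29 FPKM in controls and 0.762 to 1.32 FPKM under the knockout label. Fibroblast markers (8 of 8 in the table) summed to 213 to 272 against 228 to 261 FPKM, most of it from Dcn and Postn. Of the 6 fibroblast genes tested 2 rose, the collagen I genes Col1a1 (3.11 to 4.05 against 6.00 to 10.7 FPKM; limma adjusted p = 0.0251) and Col1a2 (6.31 to 6.61 against 8.50 to 12.1 FPKM; 0.0184). Col3a1 was also higher without overlap (5.18 to 9.27 against 10.1 to 20.4 FPKM) and did not pass (0.0708). Erythroid markers (6 of 6) summed to 291 to 484 against 150 to 335 FPKM. Skeletal muscle markers (5 of 6) summed to 23.1 to 43.1 against 20.4 to 57.4 FPKM. Besides the keratinocyte sum, the sums of a pair of lists separated the groups. Myeloid markers (7 of 7) summed to 44.2 to 56.6 FPKM in controls and 33.0 to 35.0 FPKM under the knockout label, and melanocyte markers (6 of 6) to 364 to 447 against 272 to 308 FPKM. Of these genes 5 of the 7 and 4 of the 6 fell. Of all 13500 tested genes 15.6% fell and 7.91% rose at a limma adjusted p under 0.05, and 45.8% did not overlap between groups. In these lists 0 markers were at 0 in all libraries. The part of other cell types in the differences below was not tested, and in bulk tissue fewer cells of a type and less RNA per cell cannot be told apart.

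In control epidermis the levels of the subunit mRNAs ranged from 0.700 to 70.3 FPKM per library. Akt1s1, which encodes the mTORC1 inhibitor PRAS40, stood highest at 66.99 ± 4.48 FPKM (SD, n = 3 per group, the form used for every level below). Mapkap1 followed at 34.8 ± 1.16 FPKM. Mtor itself stood at 10.6 ± 0.985 FPKM and Rptor at 8.96 ± 0.319 FPKM. Mlst8 (7.40 ± 0.235 FPKM), Deptor (6.68 ± 1.07 FPKM) and Rictor (5.34 ± 0.862 FPKM) came next, and each overlapped the next of these 3 in range. Prr5 (2.15 ± 0.274 FPKM) and Prr5l (0.777 ± 0.0807 FPKM) were lowest. All other neighbours in this order had ranges that did not overlap. FPKM is scaled by length, so levels can be compared between genes as far as the authors' gene lengths hold.

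**Figure D1:**
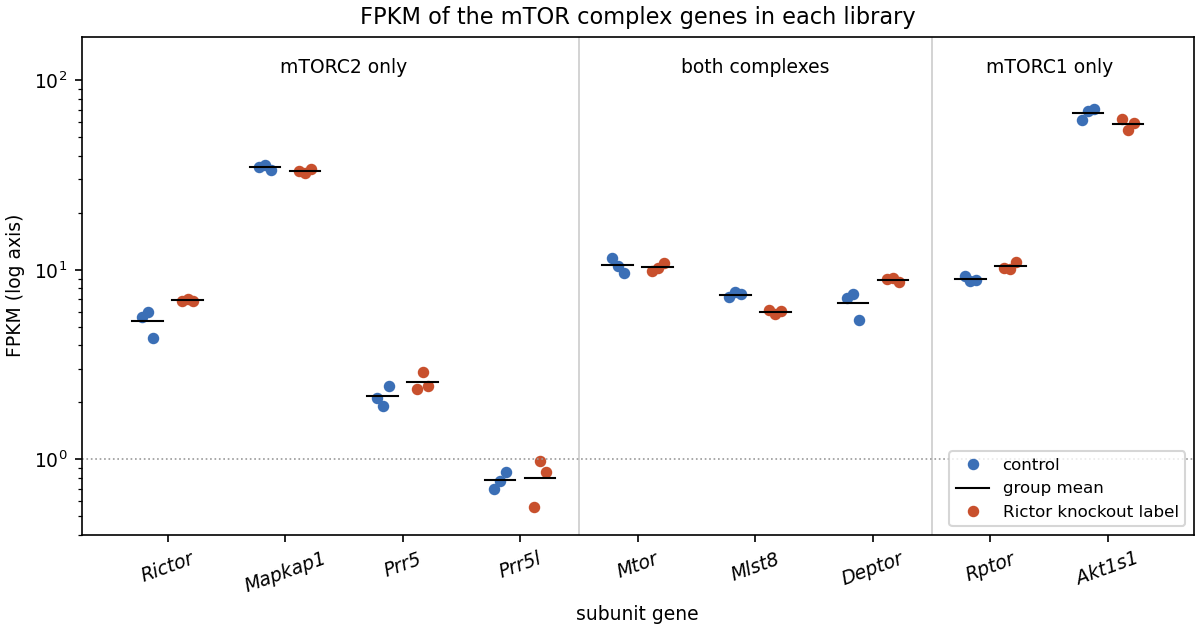
FPKM on a log axis for each of the 9 subunit genes, one point per library (blue, 3 controls; red, 3 libraries labelled Rictor knockout), with black bars at the group means and a dotted line at 1 FPKM. Akt1s1 and Mapkap1 lie above all other members in both groups, Prr5l lies below 1 FPKM in every library, and the groups stand apart for Rictor, Mlst8, Deptor and Rptor.

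Under the knockout label the ends of the order were kept and the middle was rearranged. Rptor (10.5 ± 0.491 FPKM) and Mtor (10.3 ± 0.499 FPKM) overlapped, whereas all 3 controls had more Mtor than Rptor. Deptor (8.88 ± 0.248 FPKM) and Rictor (6.91 ± 0.115 FPKM) both stood above Mlst8 (6.01 ± 0.174 FPKM) in all 3 libraries. In all 3 controls Mlst8 stood above Rictor. The SDs of Rictor and Deptor were smaller under the knockout label, and control 264 was the lowest library for both.

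Of the 8 members that entered the test, 0 rose and 1 fell at an adjusted p under 0.05 in limma's linear model on log2(FPKM + 1), where 7.91% of all 13500 tested genes were higher and 15.6% lower. At an unadjusted p under 0.05 limma gave 3 members higher and 1 lower, against 38.4% of all tested genes in either direction. Groups did not overlap for 4 of the 8 members, 3 higher and 1 lower, against 45.8% of all tested genes (16.6% higher and 29.2% lower). Over both directions the share without overlap, 50.0%, is near the background, and the share called, 12.5%, is below it. By direction the members without overlap were mostly higher and those of all tested genes mostly lower, counts that rest on 4 members. The median log2 difference of the 8 was 0.08, and that of all tested genes was -0.06. The member not tested was Prr5l, whose mean was under 1 FPKM in both groups. Of the mTORC2-only genes 0 of 3 tested passed, of the shared genes 1 of 3, and of the mTORC1-only genes 0 of 2.

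Rictor (ENSMUSG00000050310, chromosome 15, 6708379 to 6800401, exonic length 16930 bases), the scaffold that defines mTORC2 and the gene named in the knockout label, comes first. It was measured at 5.63, 6.02 and 4.37 FPKM in controls against 6.83, 7.04 and 6.86 FPKM under the knockout label. All 3 libraries labelled knockout stood above all 3 controls, so the gene's whole-gene level was not lower there. The log2 difference was 0.33 ± 0.11 (SE; 95% interval 0.07 to 0.58), which missed the threshold in limma (adjusted p = 0.0694). Exons that a deletion leaves in place still count toward a whole-gene FPKM, which therefore cannot check the labels, and every direction here is that of the libraries labelled knockout. The adjusted p ranged from 0.0107 to 0.166 over 17 alternatives and was under the threshold in 2 of them, array weights and length adjustment. Without control 264, the lowest library, the log2 difference was 0.21.

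The other subunits found only in mTORC2 did not pass. Mapkap1 (chromosome 2, 34406771 to 34624950), whose product Sin1 presents substrates to the kinase, stood at 34.9, 35.9 and 33.6 FPKM in controls against 33.1, 32.4 and 34.0 FPKM under the knockout label. The groups overlapped, with a log2 difference of -0.07 ± 0.06 (95% interval -0.20 to 0.07; limma adjusted p = 0.430). That interval is the narrowest of the 8 members tested.

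Prr5 (chromosome 15, 84669620 to 84703673) and Prr5l (chromosome 2, 101714285 to 101883027) encode the related Rictor-binding proteins Protor-1 and Protor-2. Prr5 was at 2.11, 1.91 and 2.45 FPKM in controls against 2.36, 2.90 and 2.44 FPKM under the knockout label. Its groups overlapped, and its log2 difference of 0.18 ± 0.11 did not pass (95% interval -0.08 to 0.43; limma adjusted p = 0.262). Prr5l was at 0.700, 0.769 and 0.861 FPKM in the controls and 0.560, 0.975 and 0.854 FPKM in the libraries labelled knockout, with overlapping groups. Prr5 was higher than Prr5l in all 6 libraries, by 2.78 ± 0.272 times in controls and 3.35 ± 0.753 times under the knockout label (mean ± SD of the ratio).

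Among the shared subunits the kinase gene Mtor and its partners differed in direction. Mtor (chromosome 4, 148448611 to 148557683, exonic length 10109 bases) was at 11.6, 10.5 and 9.63 FPKM in controls against 9.89, 10.3 and 10.9 FPKM under the knockout label. The groups overlapped, with a log2 difference of -0.03 ± 0.08 (95% interval -0.22 to 0.17; limma adjusted p = 0.826). Its sign changed under median, trimmed mean and quantile scaling and in 2 of the 6 fits that left out a library.

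Mlst8 (ENSMUSG00000024142, chromosome 17, 24473551 to 24479078, minus strand), the WD-repeat protein that sits on the kinase domain, was the member that fell. It was at 7.15, 7.61 and 7.44 FPKM in controls against 6.16, 5.82 and 6.05 FPKM under the knockout label. The lowest control stood above the highest library labelled knockout. The log2 difference was -0.26 ± 0.06 (95% interval -0.41 to -0.11; limma adjusted p = 0.0266), and the control mean was 1.23 times that under the knockout label. The call was lost under median, trimmed mean and quantile scaling (limma adjusted p = 0.0546, 0.0545 and 0.0577), without a filter (0.0540) and with a sex term (0.0679). It was also lost without any single library but control 264 (0.0593 to 0.0895), while the direction held in all 17 alternatives.

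Another gene lies on the opposite strand inside Mlst8. All 997 exonic bases of Bricd5 (chromosome 17, 24473884 to 24475469), a BRICHOS-domain gene, fall in annotated exons of Mlst8, and 0 of them are in Mlst8's 978 coding bases. Bricd5 was at 2.41, 3.67 and 2.71 FPKM in controls against 2.14, 2.16 and 1.55 FPKM under the knockout label. It too was lower without overlap, by a log2 difference of -0.41 ± 0.15 that did not pass (limma adjusted p = 0.0950). No label says whether the libraries keep strand, so reads of the shared bases cannot be assigned to either gene, and the values of both are uncertain to that extent.

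**Figure D2:**
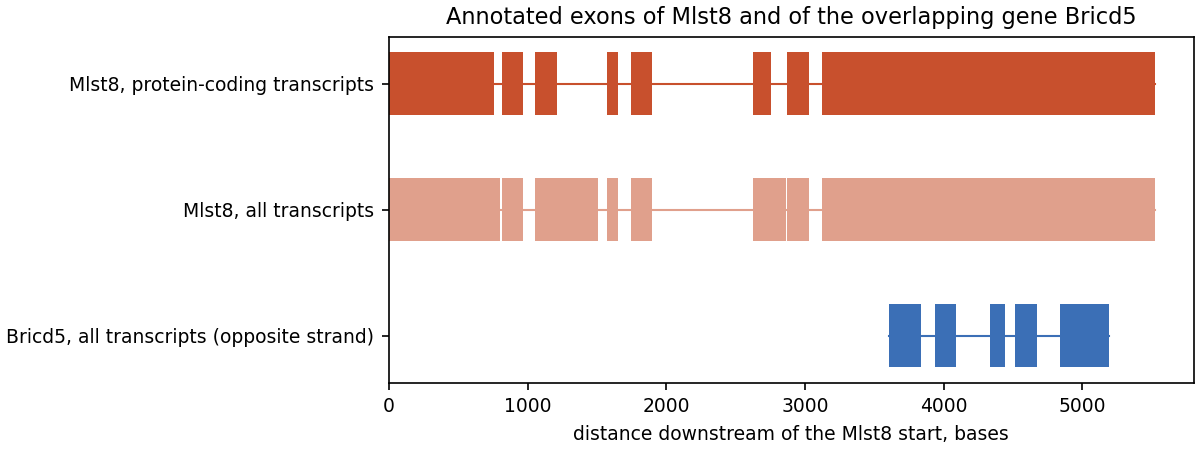
Annotated exons (boxes) of Mlst8, from its protein-coding transcripts and from all its transcripts, and of Bricd5 on the opposite strand, by distance in bases downstream of the Mlst8 start (GENCODE M21). All 997 exonic bases of Bricd5 lie within the last exon of Mlst8.

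Deptor (ENSMUSG00000022419, chromosome 15, 55112317 to 55259271, exonic length 8874 bases) encodes a protein that binds mTOR and inhibits it. It was at 7.10, 7.49 and 5.46 FPKM in controls against 8.92, 9.10 and 8.61 FPKM under the knockout label. Every library labelled knockout was above every control. Its log2 difference of 0.37 ± 0.11 is the furthest from 0 of the 8 members tested, and it missed the threshold (95% interval 0.11 to 0.63; limma adjusted p = 0.0509). It passed in 10 of 17 alternatives, with adjusted p from 0.00719 to 0.135, among them leaving out control 264 (0.0291) or control 262 (0.0461).

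The subunits found only in mTORC1 did not pass as deposited. Rptor (ENSMUSG00000025583, chromosome 11, 119602905 to 119899576, exonic length 13471 bases), the scaffold that defines mTORC1, was at 9.31, 8.70 and 8.85 FPKM in controls against 10.2, 10.2 and 11.0 FPKM under the knockout label. All libraries labelled knockout were above all controls, with a log2 difference of 0.21 ± 0.06 (95% interval 0.05 to 0.36; limma adjusted p = 0.0592). It passed in 4 of 17 alternatives, which were median, trimmed mean and quantile scaling and array weights (0.0300, 0.0295, 0.0275 and 0.0221).

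Akt1s1 (chromosome 7, 44848991 to 44855421), whose product PRAS40 inhibits mTORC1 until AKT phosphorylates it, was at 61.9, 68.8 and 70.3 FPKM in controls. In the libraries labelled knockout it was at 62.8, 54.9 and 59.7 FPKM. The groups overlapped through control 261 and library 263, and the log2 difference was -0.18 ± 0.08 (95% interval -0.37 to 0.01; limma adjusted p = 0.155). Akt1s1 shares 89 exonic bases, none of them in its own coding sequence, with Tbc1d17 on the opposite strand, which fell from 31.2 ± 2.54 to 22.4 ± 1.14 FPKM (log2 difference -0.46 ± 0.08; limma adjusted p = 0.0102) and did so in all 17 alternatives.

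**Figure D3:**
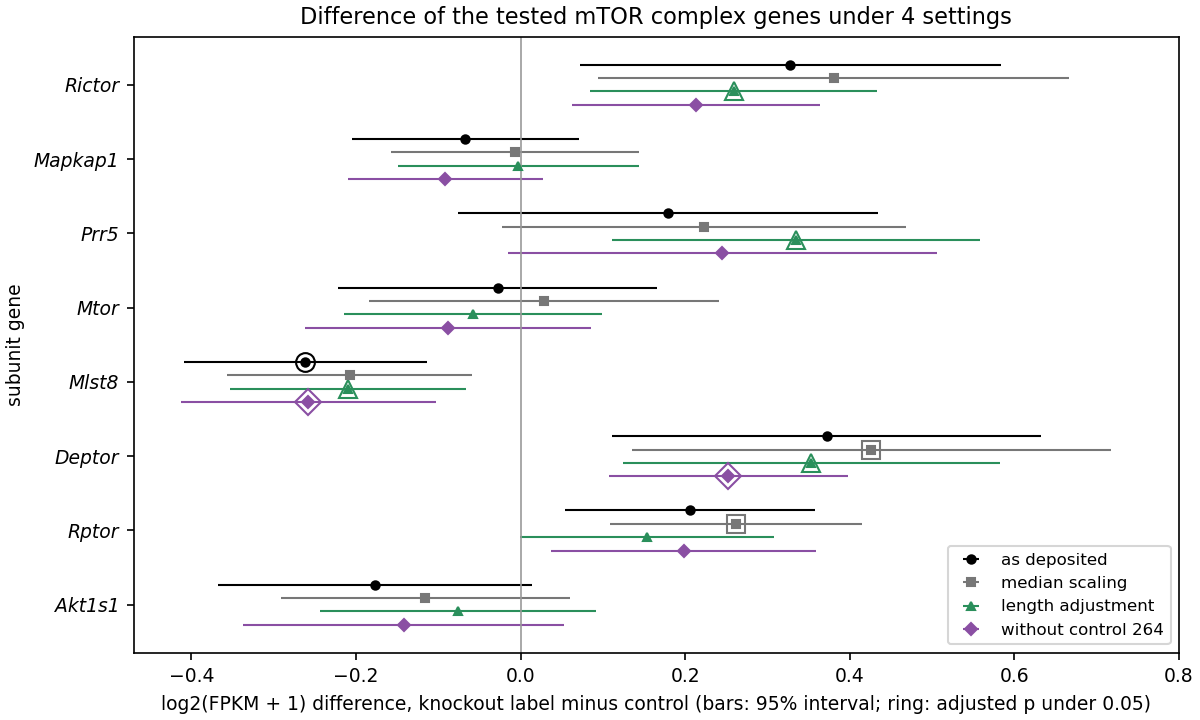
Difference in log2(FPKM + 1) between libraries labelled knockout and controls for the 8 tested members, with 95% intervals, as deposited (black), after median scaling (grey), after a length adjustment (green) and without control 264 (purple); rings mark limma adjusted p under 0.05. Mlst8 lies below 0 and Rictor, Deptor and Rptor above 0 in all 4 settings, while rings come and go.

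Differences in these data ran with gene length, and the members differ in length. Spearman's rho between exonic length and a library's deviation from the gene means, across genes that are not independent replicates, was -0.00728, 0.00280 and -0.359 in controls 261, 262 and 264. It was 0.173, 0.191 and 0.263 under the knockout label. The fitted length trend, as a log2 difference between groups, was 0.07 at the length of Rictor, 0.05 at that of Rptor, 0.03 at that of Mtor and 0.02 at that of Deptor. At the shorter members it was -0.05 for Mlst8, -0.06 for Mapkap1, -0.10 for Akt1s1 and -0.16 for Prr5. With the trend removed Rictor differed by 0.26 ± 0.07, Deptor by 0.35, Prr5 by 0.34 and Mlst8 by -0.21, and all 4 passed limma's test (adjusted p = 0.0453, 0.0403, 0.0441 and 0.0478). The difference of Rptor was then 0.15 (adjusted p = 0.131), and those of Mapkap1, Mtor and Akt1s1 were 0.00, -0.06 and -0.08. So the length adjustment gave 3 members higher and 1 lower. Among all 13500 tested genes it called 1655 higher and 1535 lower, against 1068 and 2101 as deposited.

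**Figure D4:**
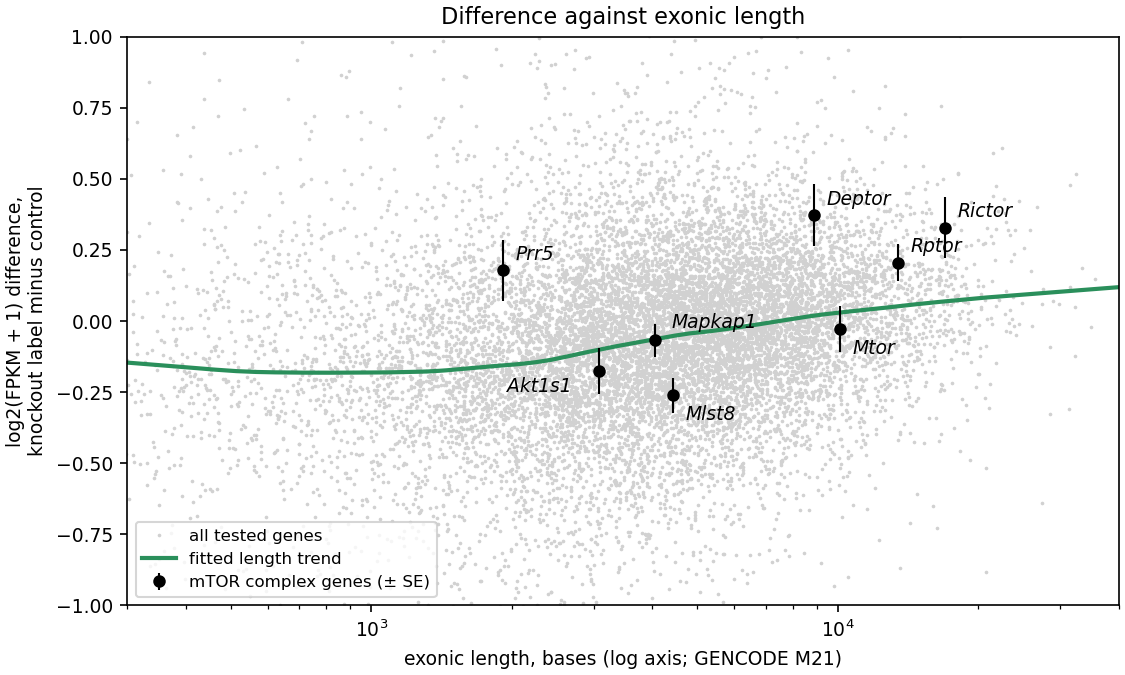
Difference in log2(FPKM + 1), knockout label minus control, against exonic length on a log axis, for all 13500 tested genes (grey; some lie outside the axes), the fitted length trend (green) and the 8 tested members (black, ± SE). Rictor, Deptor, Prr5 and Rptor lie above the trend, Mlst8, Akt1s1 and Mtor below it, and Mapkap1 close to it.

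A factor common to all genes of a library cancels in a ratio of 2 genes, so 10 ratios were compared within libraries: each other member against Mtor, Rictor against Rptor and Prr5 against Prr5l. An effect that depends on gene length does not cancel between genes of unlike length. With 3 libraries per group the exact two-sided permutation test cannot go below 0.10. Rictor per Mtor was 0.485, 0.572 and 0.454 in controls against 0.690, 0.686 and 0.630 under the knockout label. The groups did not overlap, with a difference of 0.41 in log2 ratio (exact permutation p = 0.10, adjusted over the 10 ratios 0.333). Deptor per Mtor went from 0.630 ± 0.0741 to 0.860 ± 0.0598, and Rptor per Mtor from 0.849 ± 0.0611 to 1.01 ± 0.0237 (mean ± SD, n = 3 per group). These ratios did not overlap either and had the same smallest exact p of 0.10 (adjusted 0.333). Mlst8 per Mtor went from 0.704 ± 0.0798 to 0.582 ± 0.0356, with overlap through control 261 (exact permutation p = 0.20, adjusted 0.50). The other 4 ratios to Mtor overlapped between groups (exact permutation p from 0.30 to 0.90).

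The ratio of Rictor to Rptor, the scaffolds that define the complexes, was 0.605, 0.692 and 0.494 in controls against 0.666, 0.693 and 0.621 under the knockout label. The groups overlapped, and the difference of 0.16 in log2 ratio was within the spread of the controls (SD 0.24; exact permutation p = 0.40). Without control 264 the difference was 0.03. With the length adjustment, on log2(FPKM + 1), it was 0.11 (exact permutation p = 0.50). Both scaffolds had higher values under the knockout label without passing the test, and a change in their proportion was not detectable with these libraries.

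**Figure D5:**
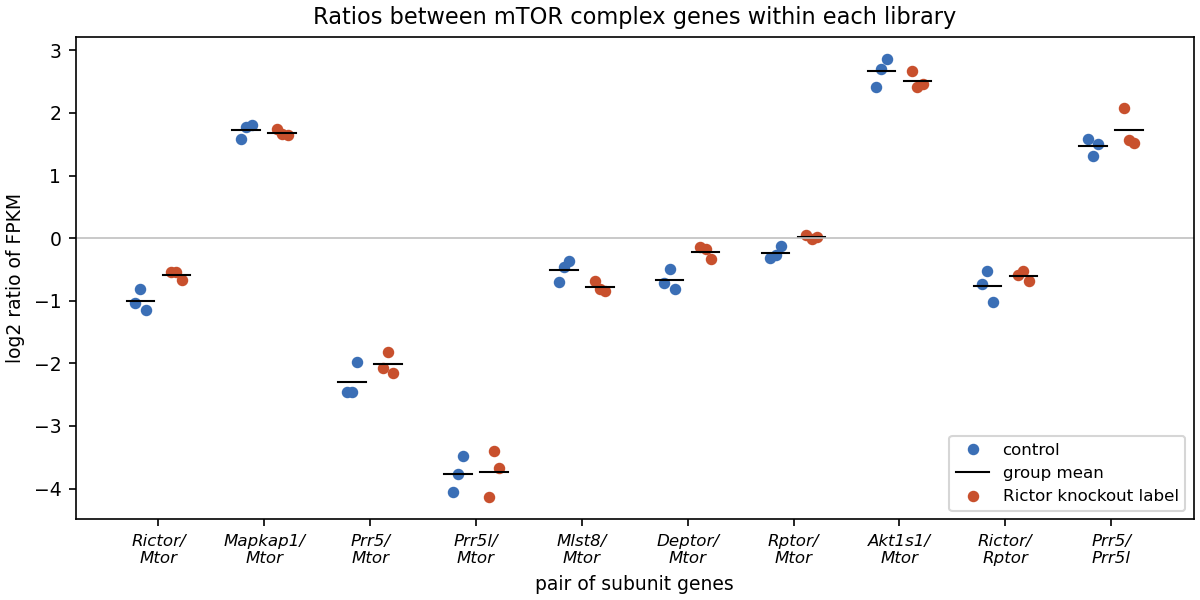
Log2 ratio of FPKM between pairs of subunit genes within each library (blue, controls; red, libraries labelled knockout), with bars at the group means. Rictor, Deptor and Rptor per Mtor stand apart between the groups, and Rictor per Rptor overlaps.

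The pattern of Rictor over the 6 libraries was compared with those of 11954 other tested genes by the root mean square difference of log2(FPKM + 1) centred on each gene's mean. The closest were Foxm1 (0.0241), a transcription factor of the cell division cycle, Peli2 (0.0257), a ubiquitin ligase of innate signalling, and Sowahc (0.0268), an ankyrin-repeat gene. Deptor came 4th at 0.0277, so a fellow subunit gene was nearly as close as the closest of the genes compared. Control 264 was the lowest of the 6 libraries for Rictor, Deptor, Foxm1, Peli2 and Sowahc (4.37, 5.46, 13.4, 15.3 and 17.9 FPKM). Rptor stood at rank 1060 (0.140), and Mapkap1, Prr5 and Mtor at ranks 3778, 3325 and 2937. Those most like Mlst8 were Nkapd1 (0.0172), Zswim3 (0.0210) and Cox15 (0.0220), a heme A synthase of mitochondria, and among the members Akt1s1 came closest to Mlst8, at rank 437 (0.0664). With 2 groups and 6 libraries many genes share such a pattern.

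The genes that assemble or control the complexes were taken from a list of 51, of which 50 were in the table and 47 were tested. Of these 2 rose and 8 fell, that is 21.3% against 23.5% of all tested genes, and their median log2 difference was -0.05 against -0.06. The share called is near the background, and 40.4% did not overlap between groups against 45.8%. In the assembly list of chaperones and their partners 2 of 10 rose and 0 fell, where 7.91% of all tested genes rose and 15.6% fell. Hsp90aa1, the stress-inducible HSP90, rose from 67.6 ± 4.93 to 89.9 ± 6.68 FPKM (log2 difference 0.41 ± 0.08; limma adjusted p = 0.0176), and the ATPase Ruvbl1 from 16.6 ± 2.70 to 21.8 ± 0.934 FPKM (0.38 ± 0.11; 0.0493). The Ruvbl1 call held in 8 of 17 alternatives and that of Hsp90aa1 in 13. Tti1, Tti2 and Telo2, which fold and assemble mTOR itself, differed by -0.08, 0.00 and 0.06 and did not pass.

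Upstream of mTORC1, Tsc1 and Tsc2 form the complex that switches off the GTPase Rheb. In this list of 5 genes 1 fell and 0 rose, or 20% called against 23.5% of all tested genes. Tsc1, Tsc2 and Rheb overlapped between groups, with log2 differences of 0.06, 0.02 and 0.03. The one that fell was Rhebl1, a Rheb-like GTPase, from 6.02 ± 0.0776 to 4.79 ± 0.217 FPKM (-0.28 ± 0.06; limma adjusted p = 0.0252), a call that held in 5 of 17 alternatives. After the length adjustment it differed by -0.18 and did not pass (limma adjusted p = 0.129).

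The Rag GTPases and the Ragulator anchor mTORC1 on lysosomes when amino acids are present, and 3 of 12 tested genes of that list fell. That is 25.0%, against 15.6% of all tested genes lower and 23.5% called in either direction. Lamtor4 was at 40.4, 36.6 and 52.3 FPKM in controls against 27.9, 29.0 and 29.8 FPKM under the knockout label (-0.55 ± 0.13; limma adjusted p = 0.0264). Lamtor2 went from 88.9 ± 10.1 to 67.7 ± 3.37 FPKM (-0.38 ± 0.09; 0.0290). Both are short, at 1302 and 1218 exonic bases, and after the length adjustment they differed by -0.37 and -0.20 (limma adjusted p = 0.0269 and 0.0499). Each call held in 11 of 17 alternatives. Flcn, the folliculin that acts on the Rag GTPases, fell by 0.23 on the log2 scale (limma adjusted p = 0.0449), in 5 of 17 alternatives and not after the length adjustment (-0.17; 0.104). In the GATOR and KICSTOR list, which relays amino acid supply to the Rag GTPases, 2 of 11 fell, or 18.2% against 15.6% of all tested genes. They were Wdr24 (-0.30 ± 0.07; limma adjusted p = 0.0251) and Nprl3 (-0.27 ± 0.08; 0.0463), whose calls held in 11 and 4 alternatives. The length adjustment ended the call of Wdr24 (-0.21; limma adjusted p = 0.0602) and left Nprl3 called (0.0404).

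Of 9 tested genes for amino acid and stress inputs 2 fell and 0 rose, or 22.2% called against 23.5% of all tested genes. Castor1, a sensor of arginine that restrains mTORC1, was at 16.4, 17.8 and 16.2 FPKM in controls against 10.7, 9.29 and 11.9 FPKM under the knockout label. The groups did not overlap, and the log2 difference of -0.62 ± 0.09 passed limma's test (adjusted p = 0.00699) and in all 17 alternatives (0.00133 to 0.0323). Sesn3, of the sestrins that restrain mTORC1 under stress, fell from 5.59 ± 0.290 to 3.90 ± 0.481 FPKM (-0.43 ± 0.09; 0.0194), in 11 of 17 alternatives.

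Downstream of mTORC1, 2 of 18 tested substrates and effectors rose and 2 fell, or 22.2% against 23.5% of all tested genes, with a median log2 difference of -0.08. Groups did not overlap for 13 of the 18, 6 higher and 7 lower, that is 72.2% against 45.8% of all tested genes. At an unadjusted p under 0.05 limma gave 6 higher and 5 lower, 61.1% against 38.4%. Eif4e, the cap-binding factor, rose from 70.5 ± 9.09 to 93.3 ± 4.08 FPKM (0.41 ± 0.10; limma adjusted p = 0.0301). Rps6kb1, the S6 kinase, rose from 18.4 ± 0.408 to 21.7 ± 0.423 FPKM (0.23 ± 0.06; 0.0277). Both calls held in 11 of 17 alternatives. Pdcd4, an inhibitor of translation that S6 kinase marks for breakdown, was at 85.1, 86.6 and 75.2 FPKM in controls against 46.2, 43.6 and 50.1 FPKM under the knockout label. Its fall of -0.81 ± 0.08 was the furthest from 0 in the lists of members, controllers and substrates tested (limma adjusted p = 0.00276) and held in all 17 alternatives. Maf1, the repressor of RNA polymerase III, fell by 0.30 on the log2 scale (limma adjusted p = 0.0158), in 13 of 17 alternatives and not after the length adjustment (-0.17; 0.104). Eif4ebp1, the translation repressor 4E-BP1, stood at 28.7 ± 2.05 and 34.1 ± 1.65 FPKM and did not pass (0.24 ± 0.07; limma adjusted p = 0.0579), though it did in 6 of 17 alternatives. These are mRNA levels, and neither phosphorylation nor complex activity was measured.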

How the data were processed

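Epidermal RNA of C57BL/6 mice (E19.5) was extracted with a QIAGEN column kit and made into Illumina libraries, per the labels' protocols. CASAVA, Cufflinks and GRCm38 are named in the submitters' processing notes, without versions. Aligner, annotation and strandedness: not given in the sources used here. A single FPKM table with 6 columns was deposited by the authors, and sample titles assign its columns to 3 control and 3 Rictor -/- libraries. Of 49452 identifiers 49195 matched GENCODE M21, and 75 rows sharing a symbol with a higher row were left out.

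Genes whose mean reached 1 FPKM in one or both groups entered the test on log2(FPKM + 1), a scale that understates changes of low genes, with limma 3.58.1 in R 4.3.3 (intensity trend, no covariates, two-sided, Benjamini-Hochberg over 13500 genes, threshold 0.05). Tested on simulated data for the same comparison and 13500 genes, 85% of 100 genes changed 2-fold and 100% of 100 changed 4-fold were recovered and 7 unchanged genes were called. The changed genes were drawn from those above about 5 FPKM, and the simulated noise was independent between genes, without a length trend. These figures therefore do not cover lower genes, smaller changes or the length trend of the real libraries. Alternatives were pseudocounts of 0.1 and 5, no filter or 5 FPKM, 3 scalings, a lowess length adjustment (span 0.3), no intensity trend, array weights, a term for sex read from Y-linked genes and Xist, and each library left out. The sex term was 1 for controls 261 and 264 and library 266, and 0 for control 262 and libraries 263 and 265. The members and lists were chosen with earlier results of these data known. All members are named, with at most the 4 called genes of smallest p per list, the 3 closest profiles of Rictor and Mlst8, and coding genes that overlap members. Tsc1, Tsc2, Rheb, Tti1, Tti2, Telo2, Eif4ebp1 and single markers were named after their values were seen. Figures used Python 3.11.15 and matplotlib 3.10.9. Gene-level read depth is unknown, so no counting error is given.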

Additional observations from a re-analysis of the deposited data

How the results depend on the processing

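Of 135 member differences recomputed under an alternative, 103 kept their direction and side of the threshold, 10 lost the call, 17 gained one and 5 changed sign. All 5 were of Mtor, at 0.029 under median and trimmed mean scaling, 0.019 under quantile normalization, 0.034 without control 261 and 0.0012 without library 263. Over all fits with 1 library left out Mtor ran from -0.088 to 0.034. Rictor passed at 0.26 with the length adjustment and 0.25 with array weights. Members higher numbered 1 with a pseudocount of 0.1 or 5 and at 5 FPKM, 2 under median, trimmed mean and quantile scaling, and 3 with the length adjustment or array weights. Of all 13500 tested genes 1068 were called higher as deposited and 1532, 1533 and 1527 under these scalings. Calls higher numbered 1655 with the length adjustment and 2335 with array weights. The pseudocounts of 0.1 and 5 gave 1081 and 1052 higher, and the filter of 5 FPKM gave 965 of 9816. Members lower numbered 0 without a filter, under the 3 scalings and with the sex term. Over all tested genes calls lower numbered 2101 as deposited, 1666, 1659 and 1661 under the scalings and 1218 with the sex term. Without a filter they numbered 1507 of 26986. Leaving out 1 library gave 0 to 1 members higher and 0 to 1 lower. In those fits 477 to 1514 of all tested genes were called higher and 985 to 2270 lower.

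For controllers higher the count was 1 with a pseudocount of 5, without a filter or without the trend, 4 with the length adjustment, 5 with array weights and 0 with the sex term. For controllers lower it was 2 without a filter, 5 under median and trimmed mean scaling and the length adjustment, 1 with the sex term and 12 with array weights, against 8 as deposited. For substrates higher it was 1 without a filter and with the sex term, 5 under median and trimmed mean scaling and array weights, and 4 under quantile normalization and the length adjustment. For substrates lower it was 1 with the length adjustment and the sex term and 8 with array weights. Over all tested genes array weights gave 2335 calls higher and 3937 lower, and the sex term 634 and 1218. Without a filter calls numbered 724 and 1507 of 26986, and without the trend 1021 and 2112. A pseudocount of 5 gave 1052 and 2072, and the length adjustment 1655 and 1535, against 1068 and 2101 as deposited. Leaving out 1 library gave 0 to 3 controllers higher, 1 to 10 lower, 0 to 4 substrates higher and 1 to 6 lower, and 0.03 to 0.27 for the log2 ratio of Rictor to Rptor. The same fits called 477 (without library 263) to 1514 (without control 264) of all tested genes higher and 985 to 2270 lower. Among genes with no call, Tsc2 changed sign at -0.00635 with the length adjustment, at -0.0722 with array weights and within -0.0713 to 0.0721 with 1 library left out. In those last fits Rheb ran from -0.0157 to 0.0811, Tti2 from -0.0441 to 0.0396 and Telo2 from -0.0264 to 0.119. Lamtor4, Lamtor2 and Wdr24 lost their calls without control 261 or any 1 library labelled knockout (limma adjusted p = 0.0561 to 0.101). Eif4e, Rps6kb1, Rhebl1, Ruvbl1 and Flcn lost theirs without any 1 library but control 264 (0.0512 to 0.144), and Nprl3 without any 1 of the 6 (0.0525 to 0.135). Sesn3 lost its call without control 261, control 262, library 263 or library 265 (0.0525 to 0.0701), Hsp90aa1 without control 261, library 265 or library 266 (0.0564 to 0.0670), and Maf1 without library 263 or 265 (0.0575 and 0.0620). Of all called genes 33.7% were higher as deposited, 47.9% under median scaling and 51.9% with the length adjustment; the cause of these changes was not tested. No paired analysis was possible because the labels give no pairing of libraries.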
